A study of Homo sapiens with 9 samples.

Results

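The islands of histone methylation that lie within 3 Mb of a chromosome end were examined in BEAS-2B cells with and without mdig. Members were all islands of the 8 ChIP-seq libraries whose midpoint fell within 3 Mb of the first or last known base of chromosomes 1 to 22 in hg19. The starts of the 5 acrocentric chromosomes 13, 14, 15, 21 and 22 were left out, which gave 39 ends, each named by its arm (5p is the end of the short arm of chromosome 5). The rule selected 13731 of the 141489 islands in the deposited data.

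BEAS-2B cells are bronchial epithelium of a human lung that was made immortal with a virus. Mdig, a JmjC domain protein encoded by RIOX2, was targeted with CRISPR-Cas9 under blasticidin selection: the KO cells are a colony that lost the protein, the WT cells went through the same procedure and kept it, and both grew with blasticidin. Neither the labels nor the methods name the colony that was sequenced. There was 1 library for each of 4 marks in each genotype and 1 input library of WT cells without an island set, so WT and KO cannot be compared against a replicate error, no test was made, and all values are descriptions of these libraries. An island is a stretch in which the peak caller found enriched reads. The islands were deposited as positions only. The depth behind them is unknown, and a wider mark cannot be told apart from a more permissive call, nor a mark in more of the cells from a stronger mark in each cell. H3K4me3 islands lay at the starts of 4 of 6 epithelial marker genes in both genotypes, with KRT19 and KRT5 lacking one, at 3 of 3 mesenchymal markers, and at 0 of 3 leukocyte markers.

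Subtelomeres are the stretches between the telomere repeats and the unique sequence of a chromosome arm. In human cells they are rich in genes, GC bases, CpG sites and tandem repeats, and their repeats are known places of heterochromatin. H3K9me3 marks heterochromatin and the bodies of zinc finger genes, H3K27me3 is laid down by the Polycomb complex over silent developmental genes, H3K4me3 marks active promoters, and H3R8me2a is an asymmetric arginine methylation of the same histone tail. The 39 windows held 115 Mb of known bases, 4.29% of the autosomes. Their GC content was 48.4%, against 40.7% in the rest of the autosomes, and 5.04% of their bases lay in short tandem repeats, against 1.43%.

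The 2 sequences below are shown because tandem repeats are a kind of DNA that these ends hold. Both are on the plus strand of GRCh37, which is hg19, and were picked after the values were seen. They lie inside islands of H3K9me3 that were present in KO alone, at 2q and 20q, which are among the 3 arms with the largest gain of that mark. Each is the most repetitive stretch of 240 bases outside exons in the most repeat-rich such island of its arm. Capitals and lower case alternate from copy to copy of the repeat unit.

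2q, chr2:242948541-242948780, unit of 42 bases, in an intron of LINC01237: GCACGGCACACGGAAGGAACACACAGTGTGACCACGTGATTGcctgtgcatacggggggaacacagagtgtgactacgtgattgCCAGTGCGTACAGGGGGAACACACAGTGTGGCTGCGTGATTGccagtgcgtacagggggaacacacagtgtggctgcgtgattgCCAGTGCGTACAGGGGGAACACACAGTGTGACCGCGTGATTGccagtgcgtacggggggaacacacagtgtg
20q, chr20:62902321-62902560, unit of 54 bases, in an intron of PCMTD2: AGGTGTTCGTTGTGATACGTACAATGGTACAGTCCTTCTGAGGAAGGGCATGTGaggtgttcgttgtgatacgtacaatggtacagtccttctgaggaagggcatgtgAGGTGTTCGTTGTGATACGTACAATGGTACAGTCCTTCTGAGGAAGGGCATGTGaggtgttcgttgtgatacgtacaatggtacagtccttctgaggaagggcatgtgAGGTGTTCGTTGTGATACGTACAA

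Shifted by 1 unit, each stretch matched itself at 90.9% of bases in 2q and 100% in 20q. Copies so alike can be hard to tell apart with short reads, and the treatment of reads with several placements was not given in the sources used here. Tandem bases made up 5.50% of the H3K9me3 islands in KO alone, 6.18% of all WT islands of the mark and 5.04% of the windows as a whole, so the repeats shown are examples and not the typical content of these islands.

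H3K9me3 had the largest change near the ends. Its islands covered 7.82% of the windows in WT and 27% in KO, a KO to WT ratio of 3.46. H3R8me2a went from 7.07% to 12.6% (ratio 1.79), H3K27me3 from 28.6% to 31.9% (1.11) and H3K4me3 from 8.51% to 9.14% (1.07). The gain of H3K9me3 was not particular to the ends as a ratio, since the rest of the autosomes went from 1.67% to 6.24%, a ratio of 3.73. By level, 19.2 percentage points were added at the ends against 4.57 in the rest. The neighbouring sequence, 3 to 6 Mb from the ends, came close with 14.1 points (3.58% to 17.7%), and the bin of 3 to 3.5 Mb had 20.4. The windows held 17.3% of all H3K9me3 bases of the autosomes in WT and 16.3% in KO, on 4.29% of the sequence. For the other marks the ratio in the rest was 1.16 for H3K4me3, 1.35 for H3K27me3 and 1.58 for H3R8me2a, so H3R8me2a had a higher ratio at the ends and the other 3 marks a lower one in this comparison. These directions turned in some others: H3R8me2a had a ratio of 1.84 in the next 3 Mb, above that of the ends, and each of the 4 marks turned in at least 1 stratum of like GC content.

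WT H3K9me3 was densest in the outermost 0.5 Mb, where it covered 11.5% of bases, and lay between 5.56% and 8.57% in the other distance bins up to 3 Mb. KO coverage was 31.0% in the outermost bin and 30.4% in the next, and stayed at 23.3% or more up to 3.5 Mb from the end. The ratio was thus lowest next to the ends (2.68) and reached 6.66 between 3.5 and 4 Mb, where WT had only 3.04% and KO 20.2%. Just inside the 3 Mb line H3K9me3 covered 7.04% in WT and 24.5% in KO, and just outside it 5.55% and 25.9%, so the line marks no step. Farther in, KO coverage came down to 13.8% at 4.5 to 5 Mb. H3K4me3 and H3R8me2a had another profile. Both were highest between 0.5 and 2 Mb, where H3K4me3 covered 9.63% to 11.5% in WT, and both were lower in the outermost bin. Within 3 Mb, H3K27me3 was lowest in the outermost bin, at 19.3% in WT and 23.4% in KO, and highest at 2.5 to 3 Mb, at 32.5% and 37.2%.

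**Figure D1:**
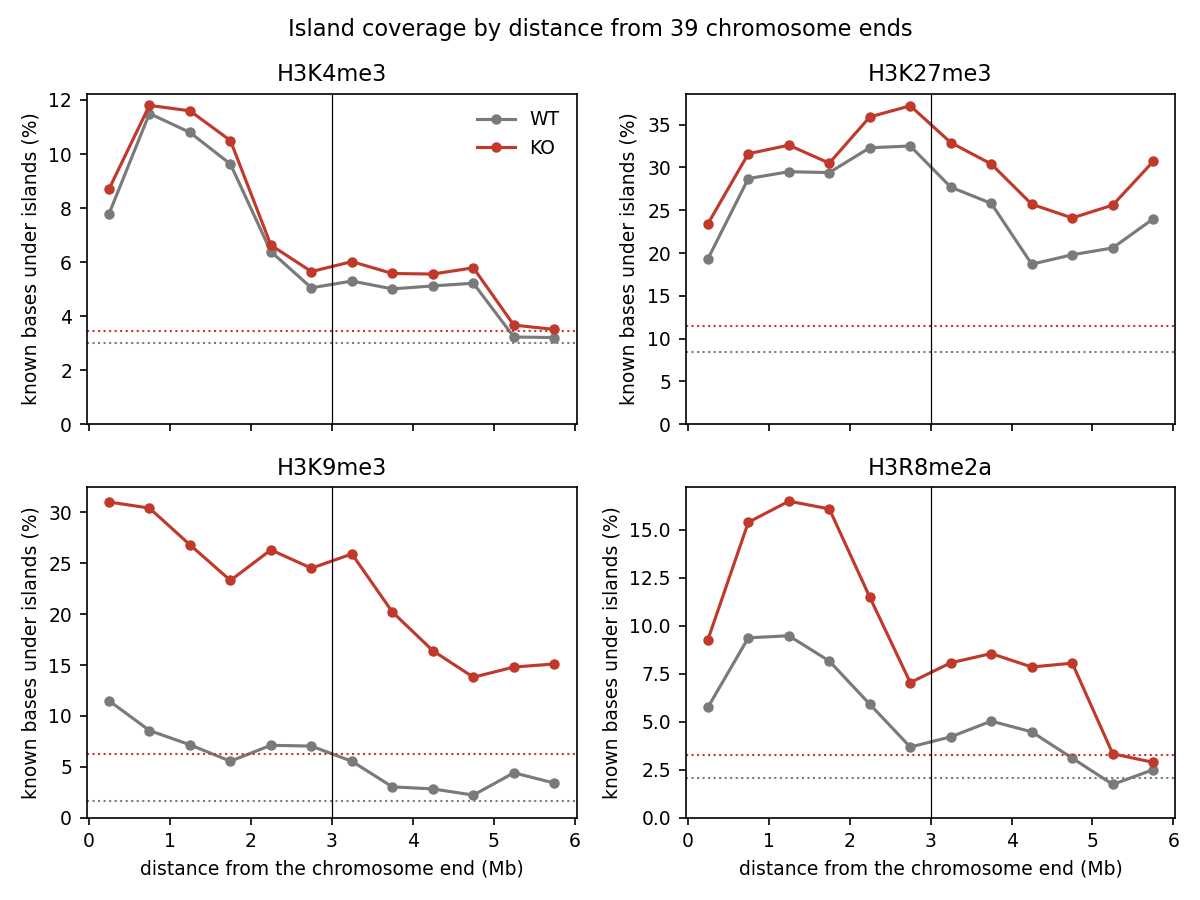
Percent of known bases under islands (y axes, from 0) in bins of 0.5 Mb by distance from the chromosome end in Mb (x axes), summed over 39 ends, for WT (grey) and KO (red); dotted lines are the rest of the autosomes beyond 3 Mb and the vertical line is the 3 Mb limit. H3K9me3 in WT was highest in the outermost bin, at 11.5%, and in KO was 31.0% there.

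In both genotypes, all 4 marks covered less of the first 100 kb than of the remainder of the windows, but more than of the rest of the autosomes. H3K9me3 covered 6.56% of the first 100 kb in WT and 17.5% in KO. In the remainder it covered 7.86% and 27.3%, and in the rest of the autosomes 1.67% and 6.24%. H3K27me3 covered 13.7% and 16.2% of the first 100 kb. The median distance from the end to the nearest H3K9me3 island was 136 kb in WT and 49.5 kb in KO. For H3K27me3 it was 64.4 kb and 78.1 kb, for H3K4me3 146 kb and 145 kb, and for H3R8me2a 274 kb and 222 kb. By the median, the nearest H3K9me3 island thus lay closer to the end in KO, while that of H3K4me3 lay at nearly the same distance.

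The ends differ from the rest of the genome in GC content, so both were also compared within strata of 100 kb bins. In the stratum with the most GC (48.3% to 63.6%), H3K9me3 covered 8.95% of the windows in WT and 36.8% in KO, over 562 bins. The 2129 bins of the rest in that stratum had 2.07% and 14.6%. H3R8me2a in the same bins covered 12.8% and 23.3% at the ends and 12.9% and 23.7% in the rest, which is nearly the same. H3K4me3 covered 14.5% and 15.3% at the ends, and 11.8% and 13.4% in the rest. In this stratum the level of H3K9me3 was higher at the ends in both genotypes and its ratio lower there (4.11 against 7.04). The other strata were not all alike. In the 4 strata with GC above 38.8% the level of H3K9me3 was higher at the ends in both genotypes, while in the 2 below it was lower. The lowest stratum had 0.755% and 1.26% at the ends against 0.832% and 1.77% in the rest, and the next 0.489% and 2.11% against 1.25% and 2.83%, over 22 and 61 bins of the windows. The ratio was higher at the ends in that second stratum (4.32 against 2.26). For H3R8me2a the stratum of 44.9% to 48.3% GC had lower levels at the ends, 2.73% and 4.65% against 4.78% and 7.58%. In the stratum with the most tandem repeats (over 2.66% of bases) H3K9me3 covered 8.57% and 31.8% at the ends and 3.50% and 14.8% in the rest.

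H3K9me3 coverage was higher in KO at each of the 39 ends. By the rule of at least 2 times the WT bases and at least 30 kb more, 33 ends gained the mark and 0 lost it. The background is high: of 840 windows of 3 Mb tiled over the rest of the autosomes, 74.6% gained and 0.119% lost H3K9me3. When each library was scaled to the same total length, 5 ends gained and 2 lost the mark, so the count of gains depends on the totals of the 2 libraries. The autosomal total was 52.0 Mb in WT and 192 Mb in KO, so scaling gives KO bases less weight. A loss of an end after scaling is thus a lower share of the library and not fewer bases of the mark. The arms therefore differ most in how much was added.

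The end of 2q had the largest addition, from 223 kb in WT to 1326 kb in KO, or 7.64% to 45.3% of its known bases. The 7p end went from 189 kb to 1235 kb and the 20q end from 142 kb to 1152 kb. The lowest additions were at 3p (2.60 kb to 11.2 kb), 9p (38.4 kb to 88.4 kb) and 18q (381 kb to 489 kb). The 3p end, with a GC content of 37.1% and 3 protein-coding genes, was nearly empty of all 4 marks in WT. At 5p, H3K9me3 went from 470.4 kb to 1463 kb. The highest level in both genotypes was at 19q, 28.1% in WT and 55.5% in KO. Across the 39 ends the added percentage points had a rank correlation of 0.520 with GC content and 0.507 with the share of tandem repeats; arms share 1 pair of libraries and their base composition, and no p is given.

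**Figure D2:**
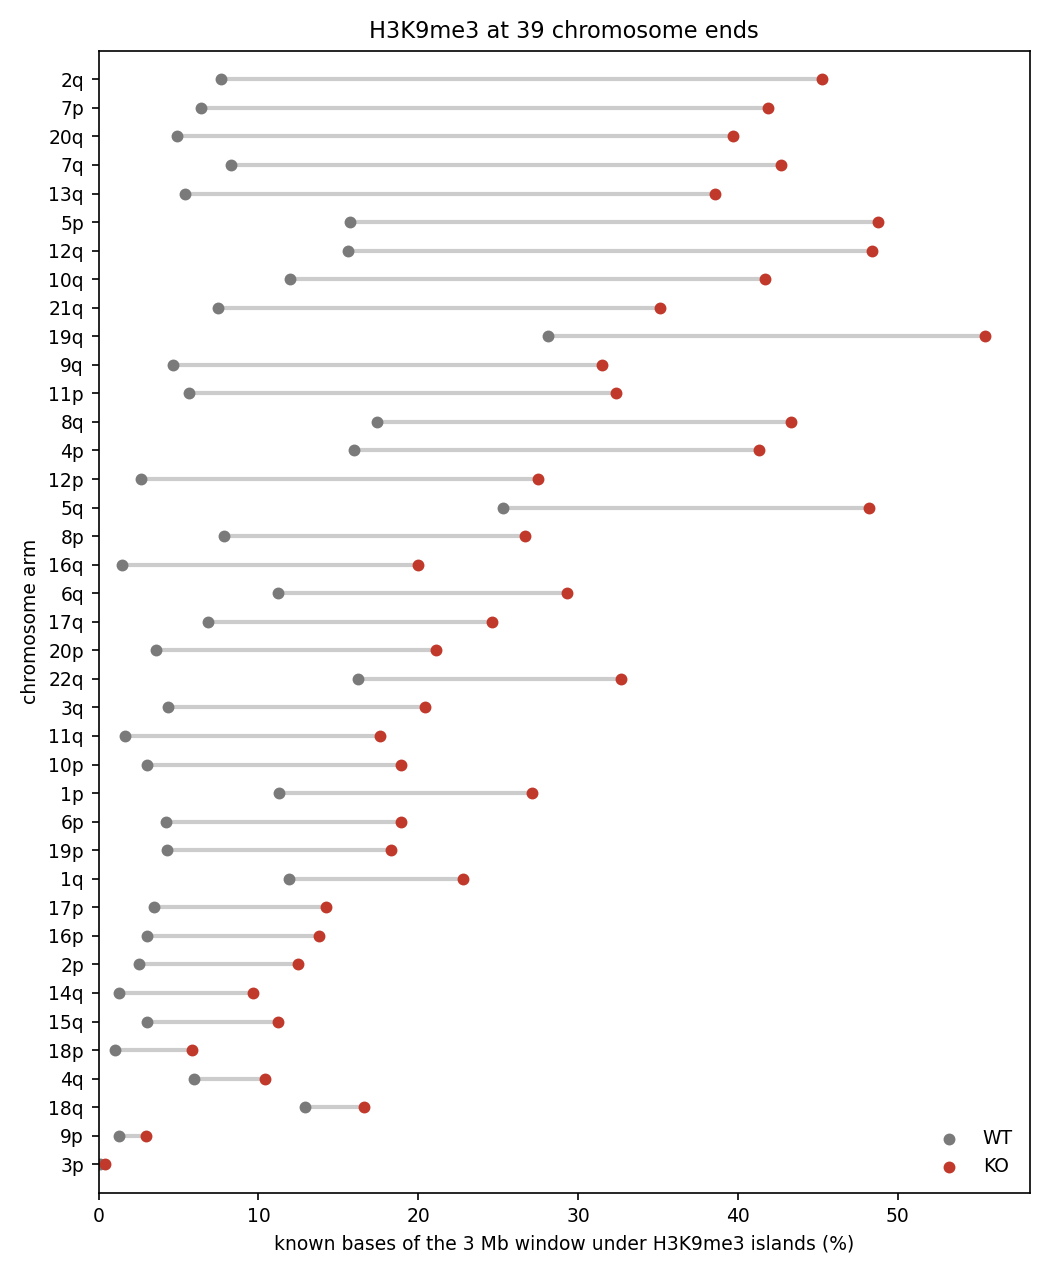
Percent of known bases of each 3 Mb window under H3K9me3 islands (x axis) in WT (grey points) and KO (red points) for 39 chromosome arms (y axis), ordered by the difference. The KO point lies to the right of the WT point in all 39 arms, by 0.287 percentage points at 3p and by 37.7 at 2q.

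The islands of H3K9me3 in the windows numbered 1493 in WT and 3491 in KO, with a median length of 4.40 kb and 6.20 kb. Nearly all WT bases of the mark stayed covered: 93.3% of them were also under KO islands. Of the KO islands, 2365 (67.7%) met no WT island of the mark, close to the 69.7% among all autosomal islands of that library. Of the WT islands 73 (4.89%) met no KO island, against 12.4% on the autosomes. The KO islands in this set of 2365 had a median length of 5.20 kb and a total of 15.8 Mb, while 224 KO islands joined 2 or more WT islands, up to 12.

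A KO island that met 12 WT islands lay at 12q, chromosome 12 from 133559001 to 133752800. It was 194 kb long, the longest of the mark in the windows, and spanned ZNF26, ZNF84, ZNF140, ZNF891 and ZNF10, which encode zinc finger proteins. In WT, 178 kb of it were already covered. The next longest, of 144 kb, also met 12 WT islands and lay over ZNF606, ZSCAN1, ZNF135, ZSCAN18 and ZNF329 at 19q. Zinc finger genes of this kind are known to carry H3K9me3 over their bodies.

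The 102 genes in the windows with a ZNF symbol were then set beside the other 1563 protein-coding genes there, a choice made after these islands were seen. An H3K9me3 island lay over 79.4% of the zinc finger genes in WT and 86.3% in KO, against 23.2% and 51.1% of the others. The bases of the mark summed over genes went from 1551 kb to 2080.1 kb at the zinc finger genes, a ratio of 1.34, and from 5229 kb to 19248 kb at the others, a ratio of 3.68. Without 19q, which holds 55 of them, the ratio at zinc finger genes was 1.29. Most of the addition over genes lay outside the zinc finger genes, but these others are 1563 of the 1665 genes. Bases shared by overlapping genes count for each gene in these sums. H3K4me3 was present over 93 of the 102 zinc finger genes in WT and over 93 in KO, not all of them the same genes.

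Bases that H3K9me3 covered in KO but not in WT amounted to 22.7 Mb of the windows. Of these, 51.8% lay under H3K27me3 islands of WT, while H3K27me3 covered 28.3% of all window bases that lacked H3K9me3 in WT. Another 42.8% lay on no island of the other 3 marks, 4.05% on H3K4me3 and 5.30% on H3R8me2a. Seen from the other side, 39.2% of the bases with H3K27me3 and without H3K9me3 in WT were under H3K9me3 in KO, against 15.0% of bases with none of the marks and 9.68% of those with H3K4me3. The share on WT H3K27me3 was 41.0% between 3 and 6 Mb from the ends and 22.1% in the tiled windows of the rest, where H3K27me3 itself covered less.

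**Figure D3:**
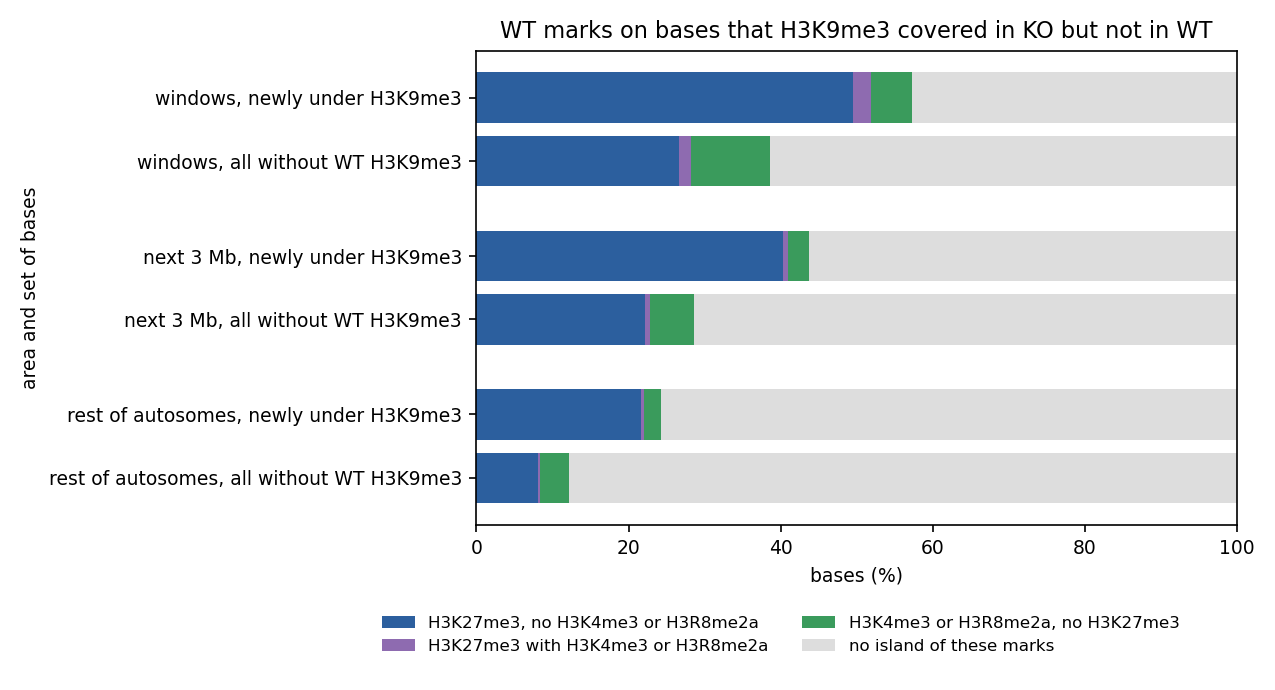
Stacked bars of the share of bases in percent (x axis) by the marks they carried in WT, for bases newly under H3K9me3 in KO and for all bases without H3K9me3 in WT, in 3 areas (y axis). In the windows H3K27me3 without an active mark made up 49.5% of new bases and 26.7% of all such bases, and in the rest 21.6% and 8.11%.

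Most bases with H3K27me3 kept it. Of all WT H3K27me3 bases in the windows, 93.8% were still covered in KO. The share of H3K27me3 bases that also had H3K9me3 was 9.0% in WT and 41.6% in KO at the ends, and 1.03% and 12.3% in the rest. Islands of 2 libraries on the same bases can come from different cells or alleles, and this was not tested.

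**Figure D4:**
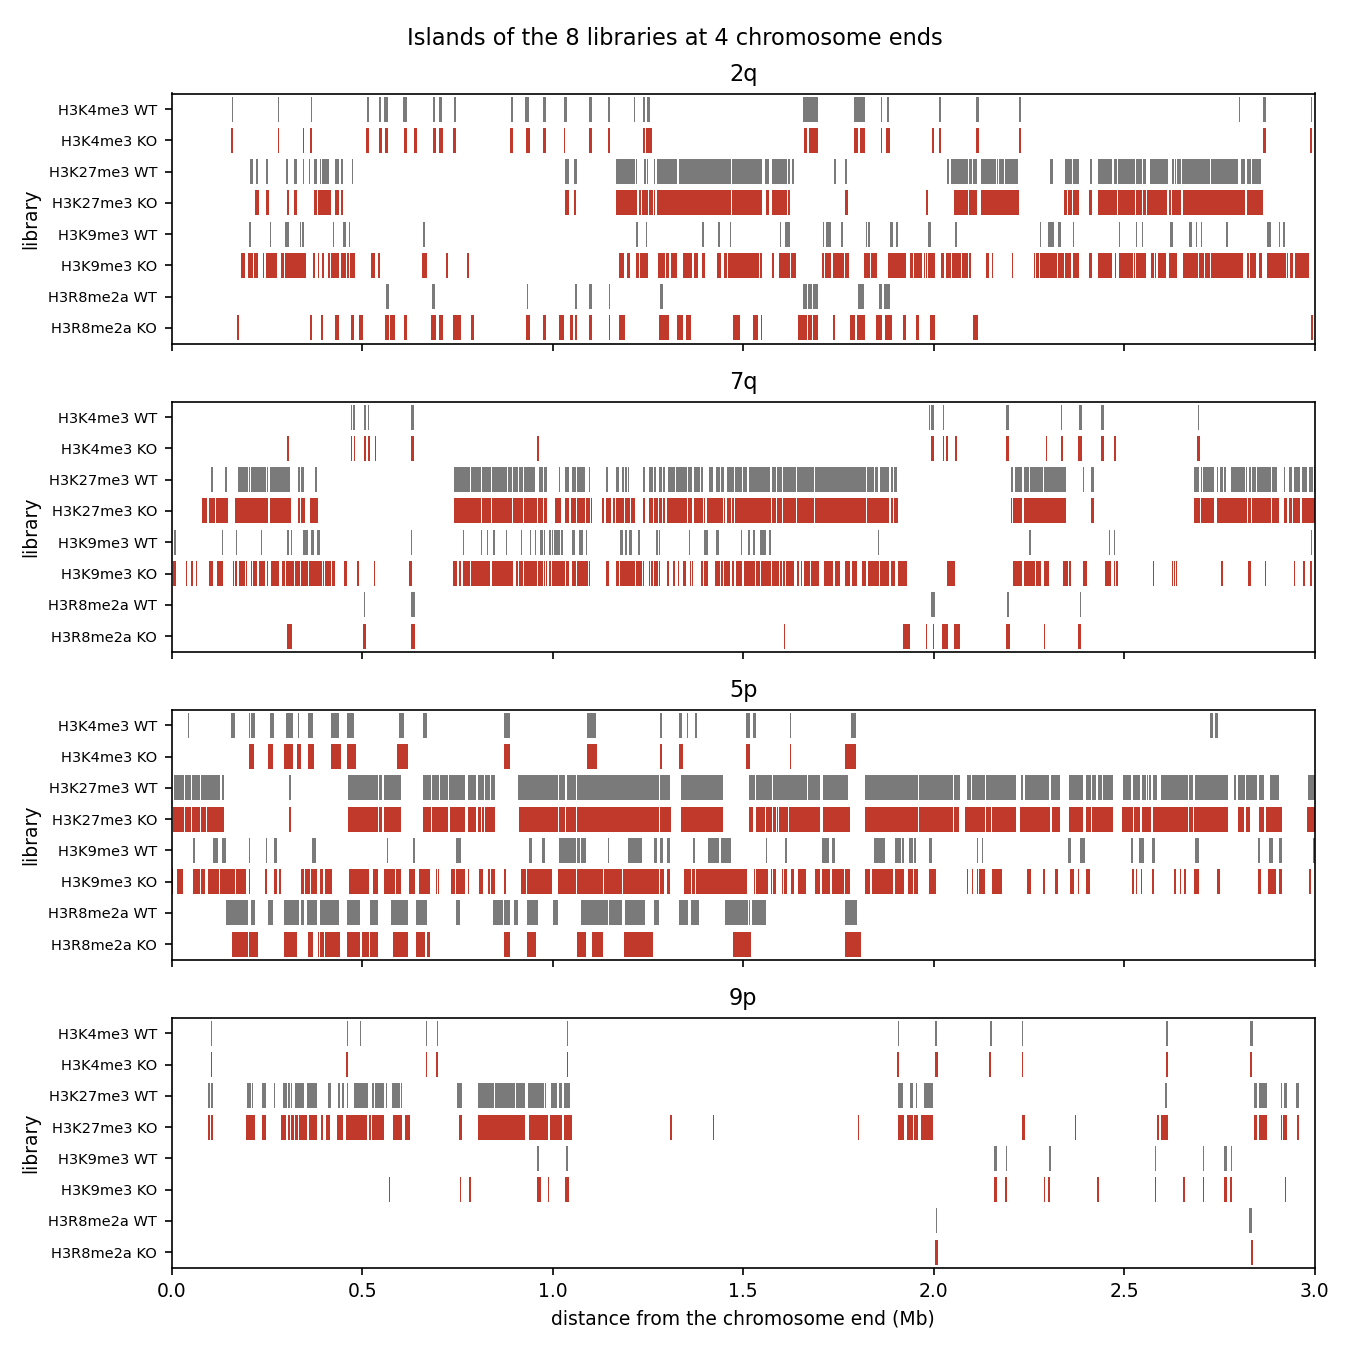
Islands (bars) of the 8 libraries, WT in grey and KO in red (rows), by distance from the chromosome end in Mb (x axis), at 2q, 7q, 5p and 9p. H3K9me3 covers 223 kb (WT) and 1326 kb (KO) at 2q, and 249 kb and 1282 kb at 7q. H3K27me3 covers 1085 kb (WT) and 1139 kb (KO) at 2q, and 1349.5 kb and 1632 kb at 7q. The overlap of these marks was not measured by arm. At 5p H3R8me2a covers less in KO (575 kb) than in WT (788 kb), and at 9p H3K9me3 covers 38.4 kb (WT) and 88.4 kb (KO).

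H3K27me3 was lower in KO at 10 of the 39 ends and higher at 29. By the rule, 3 ends gained the mark (3p, 4q and 19q) and 0 lost it, beside 20.0% gains and 1.79% losses among the tiled windows. At 4q the mark went from 21.2 kb to 204 kb, at 19q from 152 kb to 369 kb and at 3p from 13.0 kb to 91.4 kb. The largest additions in percentage points were at 8p (1170 kb to 1644 kb), 11q (922 kb to 1376 kb) and 2p (1306 kb to 1757 kb). The lowest values were at 15q (630 kb to 453 kb), 1p (901 kb to 764 kb) and 17p (333 kb to 265 kb). Islands numbered 2316 in WT and 1963 in KO, and their median length was 8.0 kb and 10.8 kb, so fewer and longer islands covered more bases. In KO alone there were 279 islands (14.2%, against 29.7% on the autosomes) and in WT alone 234 (10.1%, against 14.5%). Of the KO islands, 412 met 2 or more WT islands.

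H3K4me3 differed little between genotypes by arm. No end passed the rule in either direction, beside 0.238% gains and 0% losses in the tiled windows. Coverage was higher in KO at 31 ends and lower at 8. The 16q, 20p and 3q ends had the highest differences, with 246 kb to 374 kb, 257 kb to 382 kb and 256 kb to 332 kb. The lowest were at 17q (981 kb to 839 kb), 10q (116 kb to 78.2 kb) and 22q (256 kb to 231 kb). The 17q end has the densest H3K4me3 of all, 33.3% of its bases in WT. Islands in KO alone numbered 72 of 1243 (5.79%, against 9.13% on the autosomes) and in WT alone 108 of 1289 (8.38%, against 6.74%).

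H3R8me2a gained at 15 ends and lost at 2 by the rule, beside 15.1% gains and 6.31% losses in the tiled windows. Scaled to 1 total per mark, 5 ends gained and 4 lost it relative to that total. The highest additions were at 9q (419 kb to 1096 kb), 16p (507 kb to 1141 kb) and 20q (261 kb to 866 kb). At 16q the mark went from 17.2 kb to 571 kb. The lowest values were at 5p (788 kb to 575 kb), 6q (62.6 kb to 5.20 kb) and 22q (240 kb to 207 kb). Islands in KO alone were 614 of 1213 (50.6%, against 48.0% on the autosomes) and in WT alone 127 of 723 (17.6%, against 28.3%). The share of H3R8me2a bases that also had H3K4me3 was 58.1% in WT and 45.0% in KO. In WT, H3R8me2a thus lay mostly on H3K4me3, and in KO a larger part of it lay off that mark. Of the H3K4me3 bases, 48.2% also had H3R8me2a in WT and 62.3% in KO. The share of H3R8me2a bases that also had H3K27me3 was 11.8% in WT and 20.4% in KO. H3K27me3 covered 28.6% and 31.9% of all window bases, so both shares were below that level. Across arms the KO minus WT differences of H3R8me2a and H3K4me3 had a rank correlation of 0.673 over 39 arms, and those of H3K9me3 and H3K27me3 of -0.0642.

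**Figure D5:**
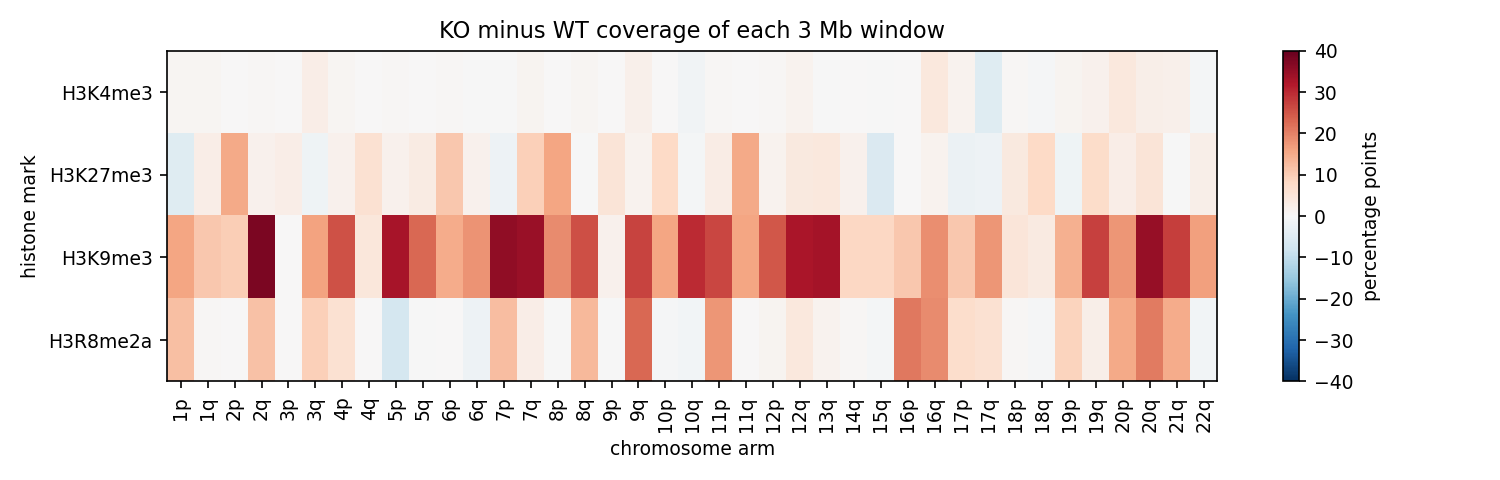
KO minus WT coverage in percentage points (colour, red for higher in KO) for 4 marks (y axis) in the 3 Mb windows of 39 chromosome arms (x axis). H3K9me3 is red in all arms, from 0.287 to 37.7 points, while H3K4me3 stays between -4.83 and 4.35.

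The windows held the starts of 1665 of 19229 autosomal protein-coding genes. A gene's value was the length of islands on its body plus 5 kb upstream, also where these ran past the 3 Mb line. A gain was at least 2 times the WT bases and at least 1 kb more. H3K9me3 gained at 668 genes (40.1%, against 28.0% of all autosomal genes) and was lost at 2 (0.884% of all genes). H3R8me2a gained at 517 (31.1%, against 20.4%) and was lost at 85 (against 8.28%). For H3K27me3 there were 65 gains (background 6.16%) and 58 losses (background 3.39%), and for H3K4me3 60 gains (background 4.19%) and 56 losses (background 1.99%). Scaled to 1 total per mark, gains and losses numbered 451 and 188 for H3K9me3, 431 and 149 for H3R8me2a, 49 and 77 for H3K27me3, and 42 and 74 for H3K4me3. Losses then outnumber gains for the last 2 marks. Such losses are relative to the library total. A gene with the same H3K9me3 bases in both genotypes can count as a loss after scaling. An H3K9me3 island lay within 2 kb of the start of 149 genes in WT (8.95%) and 423 in KO (25.4%). Elsewhere on the autosomes these shares were 2.37% and 9.93%.

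The starts with H3K9me3 were sorted by H3K4me3. Of 1103 genes with H3K4me3 at the start in both genotypes, 7.98% had H3K9me3 there in WT and 18.1% in KO. Of 497 genes with H3K4me3 in neither, 11.1% had it in WT and 41.4% in KO. The mark H3K4me3 lay at the start in WT alone for 42 genes and in KO alone for 23. Of the 42, 3 had H3K9me3 at the start in WT (7.14%) and 10 in KO (23.8%), near the 8.95% and 25.4% of all starts in the windows. H3K27me3 lay at the start of 29 of the 42 in WT (69.0%), against 14.9% of the 1103 with H3K4me3 in both. The Polycomb mark was not particular to these 42 starts. It lay in WT at 43.5% of the 23 with H3K4me3 in KO alone and at 59.0% of the 497 with H3K4me3 in neither.

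The 5 genes with the largest addition of H3K9me3 were long genes, and 4 of them lay under H3K27me3 along most of their length. PTPRN2, a receptor-type tyrosine phosphatase of secretory granules on chromosome 7 from 157331750 to 158380515, went from 177 kb to 720.2 kb of H3K9me3, while its H3K27me3 went from 743 kb to 872 kb. CACNA1C, which encodes the pore subunit of an L-type calcium channel on chromosome 12 from 2079938 to 2807116, went from 15.2 kb to 384 kb. DLGAP2, a postsynaptic scaffold gene at 8p, went from 105 kb to 374 kb. These genes are known for roles in neurons, endocrine cells and muscle. PRDM16, a PR-domain transcription factor whose start is 2.98 Mb from the 1p end, went from 74.9 kb to 336 kb and had H3K4me3 at its start in WT alone. Its body runs from 2985732 to 3355185 and the window ends at 3010000, so most of the gene lies beyond the window. MAD1L1, a gene of the spindle checkpoint at 7p, went from 54.8 kb to 292 kb and had no H3K27me3 in either genotype, so such a gain was also seen without that mark.

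Losses of H3K9me3 were small. SMCHD1 at 18p, whose protein is known to keep the D4Z4 repeats of chromosome ends and the inactive X chromosome silent, held 4.00 kb in WT and 0 in KO. LRRC28 went from 2.20 kb to 0, and MEF2A, TYMS and KRTAP12-2 from 8.80, 7.40 and 5.74 kb to 5.00, 4.00 and 4.94 kb. SMCHD1 and LRRC28 were the 2 genes that passed the rule for a loss.

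The 5 largest additions of H3K27me3 were mostly under the factor of the rule. OPCML, a cell adhesion molecule, went from 184 kb to 339 kb, and MYT1L, a neuronal transcription factor, from 269 kb to 408 kb. CNTN4, a contactin of axons at 3p, went from 14.2 kb to 76.2 kb. DLGAP2 (594 kb to 771 kb) and PTPRN2 were the others of the top 5, and CNTN4 alone of these passed the rule. The 5 largest losses were ADAMTS17, a secreted metalloprotease (225 kb to 109 kb), PRKCZ, an atypical protein kinase C (125 kb to 10.2 kb), GNG7, a G protein subunit (48.9 kb to 15.4 kb), RPH3AL, a Rab effector of exocytosis (29.4 kb to 0), and PRKAR1B, a subunit of protein kinase A (22.6 kb to 0). H3K9me3 gained by the rule at 4 of these 5, beside 40.1% of all genes in the windows. PRKCZ went from 36.8 kb to 113 kb of H3K9me3, GNG7 from 5.80 kb to 54.8 kb, RPH3AL from 49.4 kb to 116 kb and PRKAR1B from 53.5 kb to 169 kb. At ADAMTS17 it went from 26.2 kb to 34.2 kb. In this small set the bases of one repressive mark went down where those of the other went up, unlike the windows as a whole, where 93.8% of WT H3K27me3 stayed.

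The 5 largest losses of H3K4me3 in bases included 4 genes of 17q, of which BAIAP2 and AATK passed the rule. BAIAP2, an adaptor of the actin skeleton, went from 54.3 kb to 22.9 kb, and its neighbour AATK, a kinase, from 29.3 kb to 0; the bodies of these genes overlap, so the bases are partly shared. ASPSCR1 (37.1 kb to 22.9 kb) and NPLOC4 (25.9 kb to 13.4 kb) lie on the same arm and were under the factor of the rule, and ZC3H3 at 8q went from 25.8 kb to 10.8 kb and passed it. H3R8me2a over BAIAP2 was 84.9 kb in WT and 86.1 kb in KO, so the arginine mark stayed where H3K4me3 shrank. The largest additions of H3K4me3 were at COL18A1, ENDOV, SDCBP2, PDCD6-AHRR and ENSG00000274322, and of these COL18A1 (19.2 kb to 38.6 kb), ENDOV (9.40 kb to 22.6 kb) and SDCBP2 (6.80 kb to 19.4 kb) passed the rule.

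H3R8me2a was added most over PCBP3, an RNA-binding protein gene at 21q (6.40 kb to 69.4 kb), PLCH2, a phospholipase C (11.6 kb to 70.2 kb), COL18A1 (25 kb to 83.0 kb), and MAD1L1 (49.2 kb to 105 kb) with ENSG00000286192, which overlaps it. Of the 5 genes with the largest losses in bases, 4 were at 5p, but only BRD9 there and GFPT2 at 5q passed the rule. AHRR, the repressor of the aryl hydrocarbon receptor, went from 99.6 kb to 78.8 kb, BRD9, a subunit of a chromatin remodeller, from 40.8 kb to 16.4 kb, and LPCAT1, an enzyme of phospholipid synthesis, from 64.2 kb to 44.9 kb. PDCD6-AHRR shares its bases with AHRR. GFPT2, an enzyme of hexosamine synthesis at 5q, went from 19 kb to 0. H3K9me3 gained by the rule at all 5 of these genes, beside 40.1% of all genes in the windows, and AHRR and PDCD6-AHRR share bases here too.

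At 11p lie imprinted genes, which are expressed from 1 parental copy. The list holds genes of this region, and whether each of them is imprinted was not checked. All 14 of the list are in the window, and H3K9me3 gained at 7 (beside 40.1% of all genes in the windows) and was lost at 0. KCNQ1, a potassium channel gene, went from 66.6 kb to 253 kb, and H19, a noncoding RNA gene, from 0 to 13.4 kb, while H3K27me3 over H19 was 14.4 kb in both genotypes. IGF2, a growth factor gene, went from 0 to 2.46 kb. CDKN1C and PHLDA2, which restrain growth, had no H3K9me3 in either genotype. H3R8me2a gained at 7 of the 14 as well, beside 31.1% of all genes in the windows. The median addition of H3K9me3 was 1.33 kb in the list and 0.759 kb over all 1665 genes of the windows.

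The airway mucin genes lie farther out on the same arm. MUC5B, a secreted gel-forming mucin, went from 7.60 kb to 29.5 kb of H3K9me3, and MUC5AC, the other main airway mucin, from 3.60 kb to 11.6 kb. MUC6 went from 6.0 kb to 27.2 kb, MUC2 from 12.2 kb to 34.5 kb and TOLLIP, an adaptor of Toll-like receptor signalling, from 0 to 19.6 kb, so all 5 gained by the rule, beside 40.1% of the genes in the windows. H3R8me2a gained at 3 of the 5 mucin and neighbour genes, beside 31.1%. None of the 4 mucin genes had H3K4me3 at its start. Of the 5 IFITM genes, which encode membrane proteins that restrict viruses, H3K9me3 gained at 2 (IFITM3, 0 to 5.28 kb, and IFITM10, 5.17 kb to 14.8 kb), a share like the 40.1% of all genes in the windows, and H3R8me2a at 4, beside 31.1%.

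The globin genes of 16p are HBZ, HBM, HBA1, HBA2 and HBQ1, and NPRL3 holds their enhancers. These 6 genes, 0.129 to 0.170 Mb from the end, had no H3K9me3 in either genotype. Such absence was common. Of the 1563 genes of the windows without a ZNF symbol, 23.2% had the mark in WT and 51.1% in KO. At the 16p end H3K9me3 covered 13.8% in KO, below the median of 26.7% over the 39 ends. H3K27me3 over HBA1 was 4.84 kb in both genotypes. HBA1 and HBA2 are near-identical copies, so their values are uncertain.

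At 5p the Iroquois genes IRX2 and IRX4 encode homeobox factors. IRX2 held 7.40 kb of H3K4me3 in WT and 0 in KO, and H3K9me3 went from 0 to 4.59 kb, while H3K27me3 was 10.8 kb in both. IRX4 went from 5.07 kb to 13.8 kb of H3K9me3. IRX1 lies beyond 3 Mb. The 200 bases before the start of IRX2 are shown because they lay under islands of H3K4me3 and H3K27me3 in WT and of H3K27me3 alone in KO. They are on the minus strand, chr5:2751792-2751991, with CpG sites in capitals.

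IRX2: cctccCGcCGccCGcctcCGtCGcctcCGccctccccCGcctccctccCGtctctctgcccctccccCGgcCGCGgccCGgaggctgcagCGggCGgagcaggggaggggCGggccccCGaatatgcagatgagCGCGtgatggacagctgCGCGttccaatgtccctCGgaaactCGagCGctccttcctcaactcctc

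This stretch held 23 CpG sites and 73.5% GC. The solute carriers of 5p, which move ions and amino acids across membranes, carried H3K27me3 at all 5 genes in both genotypes. SLC9A3, a sodium and hydrogen exchanger, went from 0 to 53.2 kb of H3K9me3 and SLC6A3, the dopamine transporter, from 28.6 kb to 57.6 kb, and these 2 of the 5 passed the rule, like 40.1% of all genes in the windows. SLC6A18, SLC6A19 and SLC12A7 went from 23.7, 16.8 and 43.5 kb to 25.8, 28.5 and 62.7 kb.

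Of 16 autosomal telomere genes in the list, TERT and RTEL1 lie in the windows. TERT, the catalytic subunit of telomerase, went from 13.4 kb to 43.9 kb of H3K9me3, with 5.00 kb of H3K4me3 in both genotypes. RTEL1, a helicase of telomeres at 20q, went from 0 to 10 kb. Of the 6 collagen genes in the windows, 5 gained H3K9me3 by the rule, beside 40.1% of all genes in the windows. COL6A2 and COL6A1, chains of collagen VI, went from 0 to 27.1 kb and 9.76 kb, COL9A3 from 0 to 5.80 kb, COL20A1 from 0 to 9.80 kb and COL18A1 from 20.6 kb to 51.6 kb. COL23A1 went from 149 kb to 286 kb, under the factor of the rule.

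The listed genes DUX4, FRG1, FRG2, TUBB8 and WASHC1, all close to an end, held few islands. DUX4, the homeobox gene of the D4Z4 repeats 0.0390 Mb from the 4q end, and FRG2 had no island of any mark in either genotype. FRG1 carried H3K4me3 alone, 3.60 kb in WT against 3.40 kb in KO. TUBB8, a tubulin gene of oocytes, gained H3K9me3 from 0 to 2.70 kb. WASHC1 held 2.00 kb of H3K27me3 in both. These genes have near-identical copies at several ends, so reads could be placed on more than 1 copy, and their values are uncertain.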

How the data were processed

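ChIP-seq islands of BEAS-2B cells were analysed, 8 sets with 1 library per mark and genotype. The authors aligned reads to hg19 with BWA, extended them and down-sampled tags within a comparison group; the submitters' processing notes name SICER 1.1. The version of BWA, the settings of SICER and the treatment of reads with several placements are not given in the sources used here. Positions of islands without a signal make up the deposited table, and its merged regions were not used. Islands were placed on a grid of 200 bp, cut at the 3 Mb line, and divided by known bases. For the values of genes they were not cut at that line. Genes were those of GENCODE 44 mapped to GRCh37. A base was called tandem when it lay in a word of 16 bases that recurred within 200 bases. Tiles had at least 2 Mb of known bases, and GC strata used bins of 100 kb with at least 50 kb known.

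Named genes were for each mark the top 5 by gain and the top 5 by loss in bases, plus the members of fixed lists, and arms were named for the 3 highest and 3 lowest differences. Members, lists and rules were chosen with earlier results of these data known. Some sequences of the ends are not reported here. No test was run. Coverage was checked on simulated islands with known ratios. Alternatives were other window widths, islands whole, of at least 1 kb or merged within 1 kb, no first 100 kb, no 5p and 11p, a factor of 1.5, scaled libraries, an overlap of 50%, other gene regions, the next 3 Mb and GC strata. Python 3.11.15, numpy 2.4.6, scipy 1.17.1 and matplotlib 3.10.9 were used.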

Additional observations from a re-analysis of the deposited data

How the results depend on the processing

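Of 163 values under the alternatives, 146 stayed within 1.5 times the reported value. The only ratio of 2 or more, 3.46 for H3K9me3, stayed above 1, but scaled libraries were not among its alternatives. As a share of the library total on the autosomes, the windows held 17.3% of H3K9me3 bases in WT and 16.3% in KO. Scaling each library to the same total on the autosomes changed most: for H3K9me3 5 ends gained and 2 lost the mark and genes with a loss numbered 188, and for H3R8me2a 5 ends gained and 4 lost and genes with a loss numbered 149. Losses after scaling are relative to the library total and need not be fewer bases. With a factor of 1.5, 1 end gained H3K4me3 and 6 gained H3K27me3, genes with H3K4me3 gains and losses numbered 170 and 100, and genes with an H3K9me3 loss 4. Counting the 5 kb on both sides of the start, 400 genes gained H3K9me3. Asking for 50% of an island to be shared, 142 H3K4me3 islands were in KO alone. The KO to WT ratio of the ends divided by that of the rest was 0.926 for H3K9me3, but 1.91, 0.523 and 0.584 in the second, the fifth and the highest GC strata, and for H3K27me3 6.02 in the lowest stratum, which holds 22 bins of the windows. With windows of 5 Mb it was 1.09 for H3K9me3, so its direction turned. For H3R8me2a it was 1.13, but 0.973 against the next 3 Mb and 0.912, 0.866 and 0.995 in the second, the third and the highest strata. For H3K4me3 it was 0.925, but 1.37, 1.29, 1.06 and 1.07 in the 4 lowest strata, and for H3K27me3 0.824, but 1.07 and 1.21 in the second and the third. The cause was not tested. No paired analysis was possible because each mark and genotype has 1 library and no result comes from a test. Depth is unknown, and nothing here separates more mark from a more permissive call.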
